A study of Homo sapiens with 24 samples.

Results

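The results concern how differently a pair of human acute myeloid leukaemia cell lines, ELF-153 and UCSD-AML1, responded to decitabine (DAC) at 96 h. For each gene the log2 change with DAC in UCSD-AML1 (treated minus untreated) was subtracted from the log2 change in ELF-153, and this quantity is called the line difference. A positive line difference means that the gene moved further up, or less far down, in ELF-153. The 4 groups used, labelled AML1_96_ctrl, AML1_96_DAC, ELF153_96_ctrl and ELF153_96_DAC, hold 3 libraries each, 12 of the 24 libraries of the series, and 17609 genes were tested. Both lines grew in RPMI medium with 20% foetal calf serum and 5 ng/ml GM-CSF, a myeloid growth factor that the untreated cells received too. Treated cells were given 100 nM DAC on 4 consecutive days with the medium renewed each day, and the controls are labelled untreated, with no vehicle named. Each line is 1 leukaemia in culture, and the labels call the 3 libraries of a group technical triplicates, so that p-values measure only the spread between these libraries.

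Decitabine is a deoxycytidine analogue. Once built into DNA it binds DNA methyltransferases covalently, the enzyme pool is used up, and methylation marks are lost as cells divide, so that genes silenced by promoter methylation can be transcribed again. Loss of methylation also allows transcription of endogenous retroviral repeats, and double-stranded RNA from such repeats is known to be sensed by the receptors MDA5 and RIG-I, which induce interferon. Interferon in turn acts through transcription factors, among them STAT2 and IRF9, that bind a short DNA element, the interferon-stimulated response element (ISRE), in front of antiviral genes.

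The promoters of 3 genes on which the results turn are shown, from RefSeq on build GRCh38.p14, each from 250 bases before to 50 bases after the first listed transcription start and read on the strand of the gene. The core of the ISRE, 2 copies of GAAA with any 2 bases between them, was searched on both strands with overlaps allowed. Matches are in capitals for IFI44L and GBP1. In the third promoter the CG dinucleotides, at which DNA methylation can occur, are in capitals; methylation was not measured here. IFI44L, an interferon-induced gene, had the largest line difference among the interferon-stimulated genes (chr1:78620198-78620497, plus strand). GBP1, an interferon-induced GTPase, went in opposite directions in the lines (chr1:89065159-89065458, minus strand). CDKN2B, the gene of a CDK4 and CDK6 inhibitor, was read in treated ELF-153 and was near 0 in the other groups (chr9:22009256-22009555, minus strand).
IFI44L: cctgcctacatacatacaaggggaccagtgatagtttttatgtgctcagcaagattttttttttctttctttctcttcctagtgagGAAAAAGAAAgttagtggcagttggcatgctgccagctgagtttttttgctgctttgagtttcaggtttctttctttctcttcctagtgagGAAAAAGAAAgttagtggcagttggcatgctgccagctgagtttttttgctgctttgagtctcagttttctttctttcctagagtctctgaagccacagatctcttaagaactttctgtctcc
GBP1: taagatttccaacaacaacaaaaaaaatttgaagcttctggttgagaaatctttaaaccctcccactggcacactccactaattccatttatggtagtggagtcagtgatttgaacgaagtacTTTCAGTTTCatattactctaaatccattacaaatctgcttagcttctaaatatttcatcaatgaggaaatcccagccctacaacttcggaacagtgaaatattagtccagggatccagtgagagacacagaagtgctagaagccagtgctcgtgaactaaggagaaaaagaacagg
CDKN2B: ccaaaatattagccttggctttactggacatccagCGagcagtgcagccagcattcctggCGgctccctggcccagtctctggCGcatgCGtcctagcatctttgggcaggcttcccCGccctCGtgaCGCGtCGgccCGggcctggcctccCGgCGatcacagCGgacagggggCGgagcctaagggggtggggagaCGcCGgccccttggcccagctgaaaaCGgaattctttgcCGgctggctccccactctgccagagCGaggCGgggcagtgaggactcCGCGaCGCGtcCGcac
The window of IFI44L held 2 matches and no CG, that of GBP1 1 match and 3 CG, and that of CDKN2B no match and 25 CG. The ISRE letters stood in 996 of 27305 promoters of the table (3.65%) and in 275 of the 9204 promoters of tested protein-coding genes (2.99%). They stood in 26 of 37 promoters of the interferon-stimulated genes listed for this work (70.3%). Among genes higher with DAC in ELF-153 only they stood in 36 of 534 promoters (6.74%), and among genes higher in ELF-153 and lower in UCSD-AML1 in 14 of 157 (8.92%). These shares describe letters in a window and say nothing of binding.

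Reads assigned to transcripts came to 13.1 to 28.3 Mreads per library. Mitochondrial ribosomal RNA took 49.3% to 51.3% of them in untreated and 61.7% to 63.8% in treated UCSD-AML1, and 13.1% to 35.0% in untreated and 37.3% to 49.8% in treated ELF-153. Untreated ELF-153 replicate 1 stood apart with the lowest share and the lowest depth. The progenitor markers CD33, CD34, KIT, SPI1 and GATA2 were read in both lines, and MECOM (the EVI1 oncogene) lay between 3927 and 4086 scaled reads in untreated UCSD-AML1 and between 0 and 3.07 in untreated ELF-153. Of 20 markers of other cell types in the table, 9 were under 10 scaled reads in every library, and MS4A1, KLRD1, EPCAM and AFP were at 0. Summed over the list, they came to 1760 to 1848 scaled reads in untreated and 2967 to 3761 in treated UCSD-AML1, of which CDH5, an endothelial cadherin, held 2599 to 3332 with DAC. In ELF-153 the sum was 1026 to 1216 without and 1008 to 1167 with DAC, and CDH5 stayed at or under 2.94. Single markers moved within that sum: the T cell gene CD3G lay at 3.36 to 7.17 without and 85.2 to 104 with DAC, the collagen gene COL3A1 at 0 to 6.15 and 35.2 to 40.7, and the B cell gene CD79A at 96.3 to 170.3 and 73.3 to 92.8. The part of these shares and markers in the gene results below was not tested unless a value is given.

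DAC changed the lines differently at 25.8% of the genes tested. The line difference passed the test (limma, Benjamini-Hochberg adjusted p under 0.05 over all genes) at 4544 of 17609 genes, 25.8% of those tested. It was positive at 3011 (17.1%) and negative at 1533 (8.71%). Below, an adjusted p set beside a fold, a ratio or levels is that of the line difference, unless a change within 1 line is named. The split between directions depended on scaling: the median line difference of all genes was 0.19 (log2), and −0.07 after TMM scaling (edgeR's trimmed mean normalization), which gave 2090 positive and 2398 negative calls. Positive calls made up 66.3% as deposited, 46.6% after TMM in limma, 52.1% in edgeR with TMM, 53.4% in edgeR with RLE and 52.8% in DESeq2. Of the 4544 genes, 3623 were also called after TMM scaling in limma, 3394 in edgeR with TMM and 3711 in DESeq2, and no gene was called in the opposite direction in any of the 3. With the mitochondrial rRNA share of each library as a covariate 4407 were called in the same direction, and without untreated ELF-153 replicate 1 3730.

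The called genes were sorted by whether DAC changed them within each line, where 3642 genes were higher (20.7%) and 2271 lower (12.9%) in ELF-153 and 3513 higher (20%) and 3545 lower (20.1%) in UCSD-AML1. Genes higher in ELF-153 only numbered 925 (5.25%) with a median line difference of 2.05, and genes lower in ELF-153 only 373 (2.12%) with a median of −1.47. Genes higher in UCSD-AML1 only numbered 792 (4.5%, median −1.77) and genes lower in UCSD-AML1 only 1216 (6.91%, median 1.78). In 253 genes (1.44%) ELF-153 went up and UCSD-AML1 down, and in 127 (0.721%) the reverse. A further 595 (3.38%) moved the same way in both lines by unequal amounts, and 263 (1.49%) passed in neither line alone. "Only" here means that the other line did not pass its own test; the 95% interval of the other line lay within a 2-fold change in either direction for 375, 221, 415 and 556 genes of the 4 one-line classes in the order given.

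**Figure D1:**
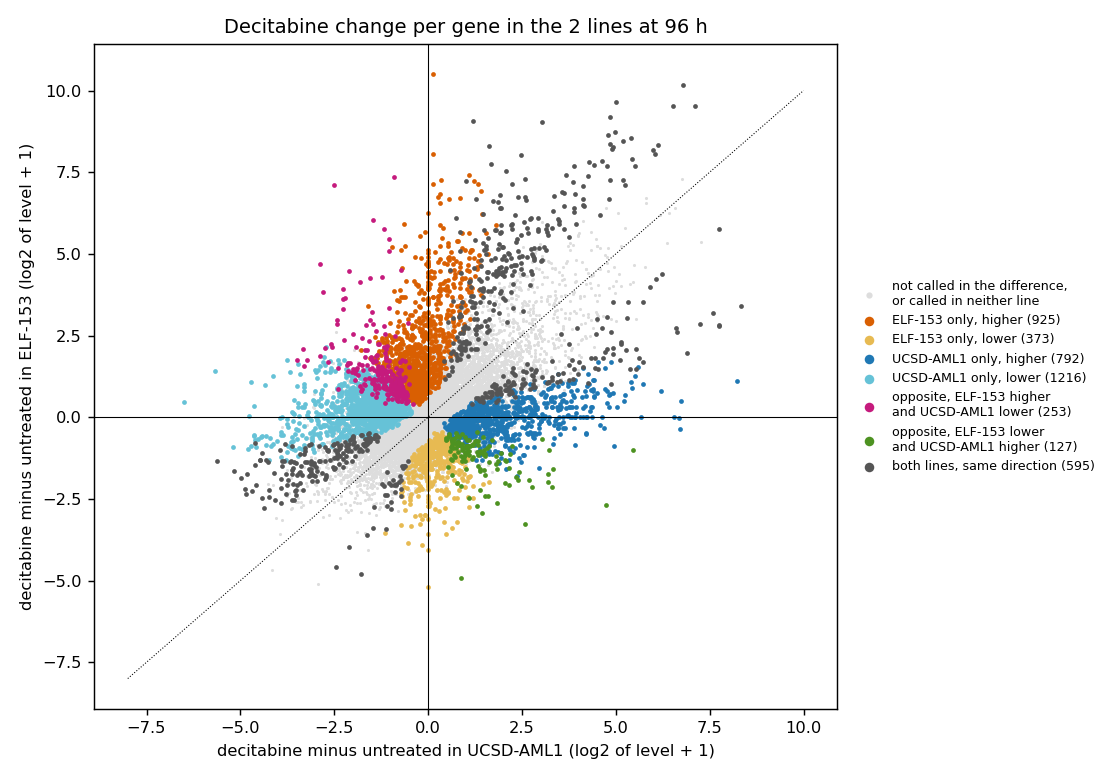
Log2 change with DAC (of scaled reads + 1) at 96 h in UCSD-AML1 (horizontal axis) and ELF-153 (vertical axis) for all 17609 genes tested, 1 point per gene, coloured by class, with a dotted line where both changes are equal. The 925 genes higher in ELF-153 only rise along the vertical zero line, the 1216 lower in UCSD-AML1 only spread to the left along the horizontal one, and the 253 opposite genes fill the upper left.

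The class sizes moved more with processing than the calls did. After TMM scaling in limma 695 genes were lower in ELF-153 only, 805 lower in UCSD-AML1 only, and the opposite classes held 146 and 236. With the mitochondrial rRNA covariate the one-line classes held 506 and 203 (ELF-153, higher and lower) and 1875 (UCSD-AML1, lower), and the opposite classes 79 and 34. All 253 and all 127 genes kept a called line difference in their direction, but only 46 of the 253 and 28 of the 127 stayed in their opposite class. Starting levels differed too. Of the 925 genes higher in ELF-153 only, 622 were more than 2-fold higher in untreated UCSD-AML1 than in untreated ELF-153, and in 525 untreated UCSD-AML1 lay at or above treated ELF-153. Of the 1216 genes lower in UCSD-AML1 only, untreated UCSD-AML1 was more than 2-fold above untreated ELF-153 in 823. The untreated levels enter both the classes and these counts, and no share over all genes was computed. The counts are therefore a description only. The other line was under 10 scaled reads with and without DAC for 148, 63, 142 and 88 genes of the one-line classes. Processed pseudogenes, copies of spliced messages inserted in the genome, were 291 of the genes lower in UCSD-AML1 only (23.9%, against 14.6% of genes tested). Genes on chromosome X were 33 of the 262 that rose in both lines and more in ELF-153 (12.6%, against 3.79% of genes tested), and the median promoter of that class held 14 CG against 26 over tested protein-coding genes.

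Interferon-stimulated genes, the antiviral effectors induced through the ISRE, mostly differed between the lines. Of 45 tested members of 46 listed, 40 had a positive line difference and 0 a negative one, and the median was 2.73 against 0.19 over all genes (both log2). Of the list 88.9% were called, against 25.8% of all genes. Within ELF-153 40 of the 45 were higher with DAC and 0 lower. Within UCSD-AML1 5 were higher and 10 lower. Over all genes 20.7% were higher and 12.9% lower in ELF-153, and 20% higher and 20.1% lower in UCSD-AML1. The count lower in UCSD-AML1 thus lay near the share of all genes. Over all alternatives 36 to 41 members were positive and 0 negative, and 40 without untreated ELF-153 replicate 1. The lines began far apart: in 39 of the 45 untreated UCSD-AML1 was more than 2-fold above untreated ELF-153, and in 35 it lay at or above treated ELF-153. In bulk RNA a larger share of responding cells and more RNA per cell cannot be told apart.

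IFI44L had UCSD-AML1 levels of 7179, 7035 and 6873 untreated against 3332, 3217 and 4849 with DAC (scaled reads, replicates 1, 2 and 3). ELF-153 levels were 1.12, 2.05 and 2.73 untreated against 378, 746 and 361 with DAC. The gene was near 0 in untreated ELF-153 and high in every other group, and treated ELF-153 stayed under every UCSD-AML1 library. The within-line log2 changes were 7.34 ± 0.28 in ELF-153 (adjusted p = 3.92e-10) and −0.91 ± 0.28 in UCSD-AML1 (adjusted p = 0.0188), and the line difference was 8.25 ± 0.40 (log2, SE; adjusted p = 1.69e-08). GBP1 had UCSD-AML1 levels of 478, 421 and 387 untreated against 84.6, 71.9 and 112 with DAC. ELF-153 levels were 14.6, 27.7 and 32.8 untreated against 259.5, 321 and 324 with DAC. Untreated and treated libraries did not overlap in either line, and their order was reversed between the lines. The changes were 3.61 ± 0.27 in ELF-153 (adjusted p = 2.88e-07) and −2.27 ± 0.27 in UCSD-AML1 (adjusted p = 2.2e-05), a line difference of 5.87 ± 0.38 (log2, SE; adjusted p = 3.87e-07). OASL, of the oligoadenylate synthetase family, had UCSD-AML1 levels of 394, 428 and 367 untreated against 221, 319 and 236 with DAC. ELF-153 levels were 4.48, 9.22 and 4.56 untreated against 448, 363 and 425 with DAC. Treated ELF-153 reached the range of untreated UCSD-AML1, whose own fall did not pass the test (adjusted p = 0.0574), and the line difference was 6.55 ± 0.35 (log2, SE; adjusted p = 4.75e-08). RSAD2, the gene of the antiviral enzyme viperin, had UCSD-AML1 levels of 1904, 1862 and 1677 untreated against 2254, 2893 and 3108 with DAC. ELF-153 levels were 129, 174 and 193 untreated against 3753, 3940.2 and 3544 with DAC. It rose in both lines and more in ELF-153, with a line difference of 3.92 ± 0.25 (log2, SE; adjusted p = 3.59e-07).

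The called members outside the 4 smallest adjusted p-values, named here after their values were seen, included the following. IFIT1, which binds foreign RNA (5.76, adjusted p = 0.000185), SAMD9L (5.85, adjusted p = 6.22e-06), TNFSF10, the death ligand TRAIL (5.28, adjusted p = 4.35e-05) and ISG15, a ubiquitin-like protein (3.55, adjusted p = 1.01e-05) were higher with DAC in ELF-153 only. MX1, a dynamin-like GTPase, went up in ELF-153 (2.89 ± 0.19) and down in UCSD-AML1 (−0.54 ± 0.19), and OAS2 went up in ELF-153 (1.49 ± 0.17) and down in UCSD-AML1 (−1.49 ± 0.17). IFITM1 was 0.79 ± 0.33 in ELF-153 and −2.08 ± 0.33 in UCSD-AML1, with a line difference of 2.87 (adjusted p = 0.00101). In OAS3, which had the smallest called line difference of the list (0.83, adjusted p = 0.0189), the movement lay in UCSD-AML1 (−0.91 ± 0.16) and ELF-153 gave −0.08 ± 0.16. The 5 members not called were ZNFX1 (−0.45), ISG20 (−0.07), GBP4 (0.24), UBE2L6 (0.49) and IFI27 (2.53, adjusted p = 0.0901).

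**Figure D2:**
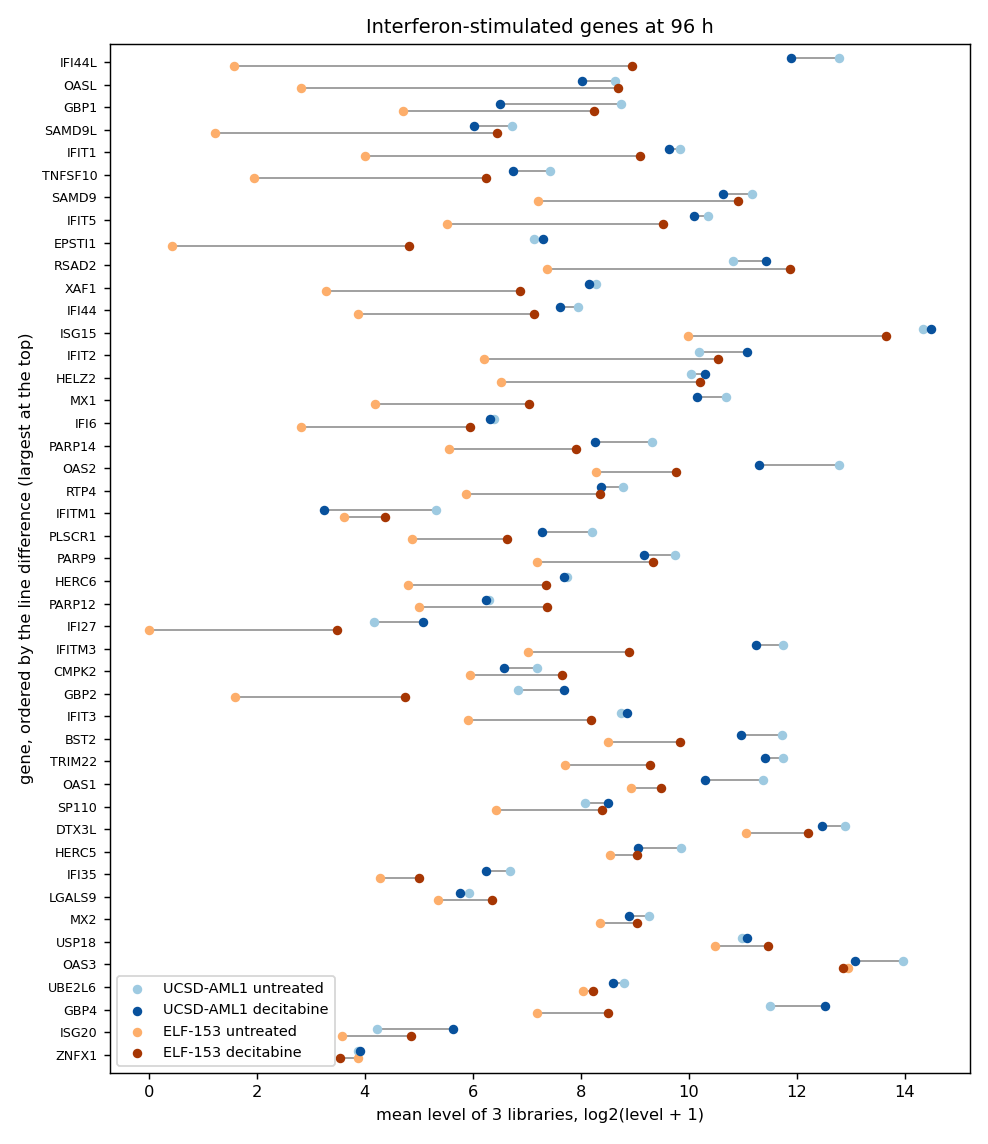
Mean level of the 3 libraries of each group, as log2(scaled reads + 1) on the horizontal axis, for the 45 tested interferon-stimulated genes in order of their line difference, largest at the top; a grey line joins untreated (pale) and treated (dark) of a line. The ELF-153 lines run from low untreated levels to the right, and in most genes the UCSD-AML1 points lie close together at higher levels.

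The sensing and signalling genes upstream were divided. Of 25 tested members 9 had a positive and 3 a negative line difference (median 0.42; 48% called, against 25.8% of all genes). IFIH1, the gene of the double-stranded RNA sensor MDA5, had UCSD-AML1 levels of 3285, 3265 and 2795 untreated against 1731, 1648 and 2728 with DAC. ELF-153 levels were 119.9, 185 and 184 untreated against 795, 1639.6 and 869 with DAC. Every treated ELF-153 library lay above every untreated one, and every one of the 6 lay below UCSD-AML1; the line difference was 3.34 ± 0.39 (log2, SE; adjusted p = 9.05e-05). EIF2AK2, the RNA-activated kinase PKR, went up in ELF-153 (1.50 ± 0.22) and down in UCSD-AML1 (−0.85 ± 0.22), with a line difference of 2.35 ± 0.31 (log2, SE; adjusted p = 0.000211). DHX58, a regulator of RNA sensing, differed by 2.50 ± 0.34 (log2, SE; adjusted p = 0.000256). IRF9, the DNA-binding partner of STAT2, rose in both lines (2.93 ± 0.16 and 0.54 ± 0.16) with a line difference of 2.39 ± 0.23 (log2, SE; adjusted p = 1.65e-05); without retained-intron and processed transcripts its adjusted p was 0.0687. Outside the naming rule, the transcription factors IRF8 (3.91, adjusted p = 0.0124), IRF7 (1.77, adjusted p = 0.00319) and STAT2 (1.38, adjusted p = 0.000462) and the receptor chain IFNAR1 (0.82, adjusted p = 0.033) were also called positive. The negative calls were the adaptor MAVS (−1.22, adjusted p = 0.0032) and the feedback inhibitors SOCS1 (−1.14, adjusted p = 0.0183) and SOCS3 (−1.26, adjusted p = 0.0213), all higher with DAC in UCSD-AML1 only. The interferon gene IFNB1 was tested and not called (1.23, adjusted p = 0.339).

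Genes of antigen presentation had few calls. Of 11 tested HLA class I pathway genes 2 were positive (18.2%, near the 17.1% of all genes) and 0 negative, and of 6 class II genes 2 were positive (33.3%) and 0 negative. PDIA3, a chaperone of peptide loading, differed by 1.57 ± 0.45 (log2, SE; adjusted p = 0.0213), and the peptide-trimming enzyme gene ERAP2, lower in UCSD-AML1 only, by 1.90 ± 0.57 (log2, SE; adjusted p = 0.0265). Both calls were lost in some alternatives, with adjusted p up to 0.0596 and 0.0723, and ERAP2 was not called in edgeR or DESeq2. CTSS, the protease that processes the invariant chain, had UCSD-AML1 levels of 493, 506 and 472 untreated against 279, 336 and 358 with DAC. ELF-153 levels were 237, 252 and 303 untreated against 369, 564 and 409.9 with DAC. It went up in ELF-153 and down in UCSD-AML1, with a line difference of 1.34 ± 0.27 (log2, SE; adjusted p = 0.00342). The class II regulator RFX5 (0.91, adjusted p = 0.0498) was not called after TMM scaling (adjusted p = 0.152).

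Among NF-kB and inflammatory targets 6 of 20 were positive and 0 negative (median 0.41), and after TMM scaling 2 were positive and 1 negative. The main fit called 30% of the list, near the 25.8% of all genes. CXCL8, a neutrophil-attracting chemokine, had UCSD-AML1 levels of 5178, 4829 and 3799 untreated against 6470.2, 7279 and 17125 with DAC. ELF-153 levels were 123, 314 and 266 untreated against 4131, 8192 and 3563 with DAC. The treated libraries of each line were the higher ones but varied widely, the rise in UCSD-AML1 did not pass (adjusted p = 0.0589), and the line difference was 3.47 ± 0.58 (log2, SE; adjusted p = 0.00107). PTGS2, the inducible cyclooxygenase, differed by 4.64 ± 0.76 (log2, SE; adjusted p = 0.000979). NFKBIA, an inhibitor of NF-kB, and the adhesion molecule gene ICAM1 had small line differences (0.76 and 0.77, adjusted p = 0.0311 and 0.0319) that were not called after TMM scaling (adjusted p = 0.14 and 0.147). Of 19 AP-1 and immediate early genes 2 were positive and 2 negative (21.1% called, near the 25.8% of all genes). EGR3, a growth-response transcription factor, had UCSD-AML1 levels of 111, 104 and 85.9 untreated against 69.8, 37.1 and 33 with DAC, and ELF-153 levels of 0, 2.05 and 0.911 untreated against 144, 95.9 and 66.5 with DAC. It was near 0 in untreated ELF-153 and overlapped untreated UCSD-AML1 with DAC (ratio 104, 95% counting interval 34.2 to 491), while UCSD-AML1 fell by 1.16 (adjusted p = 7.13e-06 for the line difference). EGR1 differed by 2.30 ± 0.61 (log2, SE; adjusted p = 0.0149). JUN rose in both lines and more in UCSD-AML1 (−1.52 ± 0.28 log2, SE; adjusted p = 0.0024), and the MAP kinase phosphatase gene DUSP1 rose in UCSD-AML1 only (−1.59 ± 0.39 log2, SE; adjusted p = 0.01).

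The genes with the largest line differences among those higher in ELF-153 only were mostly at or near 0 in untreated ELF-153. MKRN3, an imprinted gene of chromosome 15 expressed from the paternal copy, had UCSD-AML1 levels of 358, 412 and 349 untreated against 333, 453 and 438 with DAC, and ELF-153 levels of 0, 0 and 0.911 untreated against 171, 187 and 160.5 with DAC. It was present in UCSD-AML1 with and without DAC and appeared in ELF-153 with DAC, where the ratio of treated to untreated was 569 (95% counting interval 91.5 to 20249.8) and the line difference passed (limma, adjusted p = 4.11e-08). TMEM185B, a transmembrane protein gene of chromosome 2, had UCSD-AML1 levels of 445, 383 and 360.3 untreated against 474, 527 and 422 with DAC, and ELF-153 levels of 1.12, 3.07 and 0.911 untreated against 285, 267 and 256 with DAC. It showed the same order of groups, with a line difference of 6.47 ± 0.36 (log2, SE; adjusted p = 8.38e-08). CDKN2B, whose promoter with 25 CG is printed above, had UCSD-AML1 levels of 0, 0 and 0 untreated against 0, 0 and 0.971 with DAC, and ELF-153 levels of 0, 0 and 1.82 untreated against 125, 275 and 116 with DAC. It was near 0 in all groups but treated ELF-153, where the ratio was 283 (95% counting interval 71.4 to 2145). The adjusted p of its line difference was 7.34e-05 in limma and 0.978 in edgeR. TUBA3E, a tubulin gene with near-identical paralogs and so uncertain, was at least 153-fold higher with DAC in ELF-153. The cancer-testis gene MAGEB3 was at least 99.8-fold higher there, and both were near 0 in UCSD-AML1. Their line differences had adjusted p of 1.04e-05 and 5.53e-05 in limma, and MAGEB3 was not called in edgeR. CDKN2B, TUBA3E and MAGEB3 passed the filter only through treated ELF-153, so that their p-values are a description only.

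Cancer-testis antigens are genes normally silent outside the germ line. With DAC 17 of 18 tested members were higher in ELF-153 and 14 in UCSD-AML1, where 20.7% and 20% of all genes were. Of the 18, from 41 listed, 14 had a positive line difference and 0 a negative one, 11 of them higher in both lines. The line difference was called in 77.8% of the list, against 25.8% of all genes. These lists could pass the filter only through groups in which their members were read. Of the 18, 17 had a group with 3 reads or fewer, so that the count is a description only. In edgeR 1 was called and in DESeq2 4. Without any 1 of the treated ELF-153 libraries limma called 7. Members that reached the filter level only in treated ELF-153 were then removed before testing, so that this lower count does not test them. MAGEB2, on chromosome X, had UCSD-AML1 levels of 4.19, 0.917 and 1.58 untreated against 79.7, 109 and 96.2 with DAC, and ELF-153 levels of 0, 0 and 0 untreated against 811, 770.1 and 813 with DAC. It was at 0 or near it without DAC in both lines and read in all treated libraries, higher in ELF-153. There it was at least 783-fold higher with DAC (adjusted p = 4.95e-05 for the line difference). PAGE1, PAGE2 and SSX1, also on chromosome X and with close paralogs, had treated means of 150.2 ± 32, 107 ± 13.1 and 102 ± 20.2 scaled reads (SD, n = 3) in ELF-153 and 1.78 ± 1.69, 4.42 ± 1.44 and 5.45 ± 2.41 in UCSD-AML1, with 0 reads untreated in both, and edgeR called none of the 3. Of 14 germ-cell, meiosis and piRNA genes 8 were positive and 0 negative (57.1% called, against 25.8% of all genes). Of the 14, 11 had a group with 3 reads or fewer, and edgeR and DESeq2 each called 2 positive. TDRD9, a helicase of the piRNA pathway that silences transposons in germ cells, had UCSD-AML1 levels of 181, 135 and 148 untreated against 458, 499 and 459 with DAC, and ELF-153 levels of 0, 0 and 0 untreated against 315, 322 and 308 with DAC. It rose in both lines and was at least 309-fold higher with DAC in ELF-153 (adjusted p = 9.38e-09 for the line difference). TEX19, another germ-line transposon restraint, differed by 3.08 ± 0.41 (log2, SE; adjusted p = 0.000214). DAZL and TDRD12 reached 741 ± 80.9 and 689.8 ± 19.9 in treated ELF-153 and 139 ± 32.5 and 64.8 ± 13.2 in treated UCSD-AML1 (adjusted p = 0.00164 and 0.00405, not called in edgeR).

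Genes lower with DAC in ELF-153 only included membrane and secreted proteins that untreated cells of both lines expressed. SPNS2, an exporter of the lipid messenger sphingosine phosphate, had UCSD-AML1 levels of 1479.6, 1583 and 1440.2 untreated against 1354, 1570.2 and 1323 with DAC. ELF-153 levels were 1658, 1119.6 and 1302 untreated against 188, 156 and 164 with DAC. The 3 treated ELF-153 libraries lay far below the other 9, which overlapped, and the line difference was −2.89 ± 0.24 (log2, SE; adjusted p = 4.2e-06). PCDH12, a protocadherin, had UCSD-AML1 levels of 925, 872 and 846 untreated against 1113, 1058 and 866 with DAC, and ELF-153 levels of 519.7, 419 and 405 untreated against 77.7, 52.3 and 58.7 with DAC. EGFL7, a secreted factor of endothelium and blood progenitors, had UCSD-AML1 levels of 408, 423 and 428 untreated against 356, 436 and 397 with DAC, and ELF-153 levels of 442, 314 and 391 untreated against 64.4, 33.1 and 47 with DAC. Both fell in ELF-153 and gave in UCSD-AML1 changes of 0.19 ± 0.19 and −0.09 ± 0.22 that did not pass, with line differences of −3.02 ± 0.26 (log2, SE; adjusted p = 7.05e-06) and −2.91 ± 0.32 (log2, SE; adjusted p = 4.86e-05). The zinc protease gene AMZ1 (−2.91 ± 0.59 log2, SE; adjusted p = 0.00385), C4orf50 (adjusted p = 0.00452) and the protease inhibitor gene SPINK2 (adjusted p = 0.00909, and 0.0667 in edgeR) were read almost only in ELF-153, where they fell from 755 ± 67.5, 228 ± 28.7 and 128 ± 31 to 213 ± 5.48, 19.8 ± 9.45 and 25.6 ± 7.85 scaled reads; in UCSD-AML1 no group mean of the 3 was above 7.0.

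Genes higher with DAC in UCSD-AML1 only included several that ELF-153 read at or near 0. PTGIS, the prostacyclin synthase of chromosome 20, had UCSD-AML1 levels of 0, 0 and 0.788 untreated against 373, 464 and 279.7 with DAC, and ELF-153 levels of 0, 0 and 0.911 untreated against 5.68, 0 and 1.96 with DAC. It was read in treated UCSD-AML1 and near 0 elsewhere, with a ratio of 1417 (95% counting interval 216 to 47743). The adjusted p of its line difference was 0.00011 in limma and 0.0925 in edgeR with TMM. The matrix link protein gene HAPLN1 had a ratio of 478 (74 to 16429), with ELF-153 at or under 3 reads in each group (adjusted p = 1.93e-05 for the line difference). XKR4 went from 2.71 ± 0.839 to 344 ± 23.3 and the pepsinogen gene PGC from 2.14 ± 1.13 to 325 ± 97.8 in UCSD-AML1. Both were near 0 in ELF-153, and their line differences (adjusted p = 2.91e-06 and 6.74e-05 in limma) were not called in edgeR. PTGIS, HAPLN1, XKR4 and PGC passed the filter only through treated UCSD-AML1, so that their p-values are a description only. ZNF22, a zinc finger gene of chromosome 10, differed from these: it had UCSD-AML1 levels of 2.1, 1.83 and 0 untreated against 31.5, 34.8 and 47.6 with DAC, and ELF-153 levels of 1550.3, 1924 and 2307 untreated against 1257, 1563 and 1302 with DAC. ELF-153 expressed it with and without DAC, while UCSD-AML1 expressed it at a low level with DAC, and the line difference was −4.69 ± 0.50 (log2, SE; adjusted p = 3.98e-05). VWF, the gene of von Willebrand factor of endothelium and platelets, had UCSD-AML1 levels of 1914, 1912 and 1668 untreated against 29754, 19681 and 15824 with DAC. ELF-153 levels were 553, 515 and 342 untreated against 883, 513 and 814 with DAC. It rose steeply in UCSD-AML1, and the change in ELF-153 (0.64 ± 0.26) did not pass, with a line difference of −2.88 ± 0.37 (log2, SE; adjusted p = 0.000167). RUNX1, a master regulator of blood formation, rose in UCSD-AML1 only (−1.09 ± 0.33 log2, SE; adjusted p = 0.0261), a call lost in 3 alternatives (adjusted p up to 0.0732).

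Most cell cycle genes fell in both lines, and many fell further in UCSD-AML1. Of 48 tested members 29 had a positive line difference and 0 a negative one (21 to 35 over the alternatives), with a median of 1.31. Of the list 60.4% were called, against 25.8% of all genes. Within the lines 37 were lower in ELF-153 and 47 in UCSD-AML1, with median changes of −1.70 and −3.26. Over all genes 12.9% were lower in ELF-153 and 20.1% in UCSD-AML1. CCNA2, the cyclin of S phase, had UCSD-AML1 levels of 7168, 7186 and 6729 untreated against 233, 292 and 346 with DAC. ELF-153 levels were 4345, 5854 and 5110.5 untreated against 1609, 2343 and 1688 with DAC. Untreated ELF-153 lay below untreated UCSD-AML1, and with DAC UCSD-AML1 fell below every ELF-153 library (3.16 ± 0.27 log2, SE; adjusted p = 5.81e-06). CDC6 (2.88, adjusted p = 3.06e-05), which loads the replicative helicase, the spindle motor gene KIF11 (3.35, adjusted p = 9.71e-05) and the kinetochore gene CENPF (2.31, adjusted p = 0.000101) followed the same order. ASPM, a spindle pole gene, had UCSD-AML1 levels of 2677, 2711 and 2816 untreated against 106, 46.1 and 200.1 with DAC. ELF-153 levels were 171, 795 and 342 untreated against 152, 1269.8 and 255 with DAC. It fell in UCSD-AML1, and ELF-153 replicate 2 was high with and without DAC, so that the ELF-153 groups overlapped (4.80 ± 0.99 log2, SE; adjusted p = 0.00423). Outside the naming rule, CDK1 (4.27, adjusted p = 0.000431), the cyclin gene CCNB1 (3.84, adjusted p = 0.00496) and the topoisomerase gene TOP2A (3.83, adjusted p = 0.000209) were called and lower in UCSD-AML1 only, while PCNA (−0.37), PLK1 (0.09) and MCM7 (0.19) were not called. HELLS, a chromatin remodeller needed for DNA methylation, fell in both lines and more in UCSD-AML1 (3.09 ± 0.39 log2, SE; adjusted p = 0.000159).

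Other genes lower in UCSD-AML1 only were of mixed function. RAG2, a recombinase subunit of lymphoid precursors, had UCSD-AML1 levels of 147, 156 and 125 untreated against 2.95, 0 and 0 with DAC, and ELF-153 levels of 0, 1.02 and 0 untreated against 0, 4.36 and 0 with DAC. Outside untreated UCSD-AML1 no library had more than 4.36, and the ratio of untreated to treated there was 145 (95% counting interval 47.5 to 680.4). The line difference of RAG2 (adjusted p = 0.00032) is a description only, since the gene passed the filter only through untreated UCSD-AML1. The growth factor gene FGF7 fell from 154 ± 16.9 to 13.4 ± 5.8 and the heparan sulphate enzyme gene HS6ST2 from 146 ± 48.6 to 11.1 ± 10.7 in UCSD-AML1, with ELF-153 near 0 (adjusted p = 0.000736 and 0.00183). FGF7 and HS6ST2 too passed the filter only through untreated UCSD-AML1, and their p-values are likewise a description only. GOLT1B, of Golgi transport, had UCSD-AML1 levels of 1363, 1188 and 937 untreated against 55.1, 47.2 and 407 with DAC. ELF-153 levels were 28, 25.6 and 16.4 untreated against 46.4, 209 and 40.1 with DAC. Treated UCSD-AML1 replicate 3 and treated ELF-153 replicate 2 lay far above the other libraries of their groups, and the line difference was 5.12 ± 1.00 (log2, SE; adjusted p = 0.00302); TXNDC9 showed the same libraries high (4.75 ± 1.22 log2, SE; adjusted p = 0.0133). Of 35 ribosome biogenesis and MYC network genes 7 were positive (20%, near the 17.1% of all genes) and 0 negative. The 7 were lower in UCSD-AML1 only, among them UTP20 (1.86, adjusted p = 0.00272), GNL3 (1.44, adjusted p = 0.00276, and 0.136 without retained-intron and processed transcripts), ODC1 (1.65, adjusted p = 0.00496) and WDR12 (0.84, adjusted p = 0.00983, and 0.0557 after TMM scaling). The receptor genes KIT and IL6R belonged here as well. KIT had UCSD-AML1 levels of 1853, 1647 and 1756 untreated against 376, 244 and 463 with DAC. ELF-153 levels were 150.1, 474 and 249.7 untreated against 214, 901 and 352 with DAC. UCSD-AML1 fell without overlap, ELF-153 replicate 2 was again high in both arms, and the line difference was 2.97 ± 0.65 (log2, SE; adjusted p = 0.00605). IL6R, the interleukin receptor, differed by 1.67 ± 0.21 (log2, SE; adjusted p = 0.000122).

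In 380 genes the main fit called both lines, in opposite directions. With the mitochondrial rRNA covariate 46 of the 253 higher in ELF-153 and 28 of the 127 lower in ELF-153 stayed opposite. HIST1H4C, a replication-dependent histone H4 gene, had UCSD-AML1 levels of 20132, 19097 and 18129 untreated against 2899.7, 4051 and 3300.4 with DAC. ELF-153 levels were 26.9, 7.17 and 20.0 untreated against 2475, 1945 and 2589.8 with DAC. It fell in UCSD-AML1 from a high level and rose in ELF-153 from a low one, with a line difference of 9.60 ± 0.47 (log2, SE; adjusted p = 1.69e-08); histone H4 genes are near-identical, so the assignment of its reads is uncertain. CD180, a toll-like receptor homologue of B cells and monocytes, had UCSD-AML1 levels of 94.4, 111 and 112 untreated against 19.7, 10.1 and 33 with DAC. ELF-153 levels were 58.2, 126 and 140.3 untreated against 672, 941 and 824 with DAC. The untreated lines overlapped, and the treated lines lay on either side of them (5.40 ± 0.53 log2, SE; adjusted p = 2.03e-05). IL7R, the interleukin receptor of lymphoid growth, had UCSD-AML1 levels of 2636, 2664 and 2680.2 untreated against 498, 544 and 618 with DAC, and ELF-153 levels of 0, 1.02 and 3.65 untreated against 21.8, 48 and 29.4 with DAC. It remained far higher in UCSD-AML1 in spite of opposite changes (6.21 ± 0.60 log2, SE; adjusted p = 1.65e-05). ADAMTS3, a procollagen protease, had UCSD-AML1 levels of 540.0, 565 and 474 untreated against 63, 92.2 and 71.9 with DAC, and ELF-153 levels of 1.12, 11.3 and 3.65 untreated against 60.6, 62.8 and 87.1 with DAC. The treated lines converged on overlapping levels from untreated levels far apart (6.62 ± 0.64 log2, SE; adjusted p = 1.82e-05). KAZALD1 (4.85 ± 0.37 log2, SE; adjusted p = 2.27e-06) and the lectin-like gene CLECL1 (adjusted p = 1.69e-08, at least 21.4-fold higher with DAC in ELF-153) moved the same way. C21orf91 (3.75 ± 0.80 log2, SE; adjusted p = 0.00518) did too, with ELF-153 replicate 2 and treated UCSD-AML1 replicate 3 high.

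Among genes that fell in ELF-153 and rose in UCSD-AML1, NEURL1B, a ubiquitin ligase of Notch signalling, had UCSD-AML1 levels of 35.7, 57.7 and 54.4 untreated against 503, 413 and 427 with DAC. ELF-153 levels were 1227, 1176 and 1039 untreated against 393, 295 and 338 with DAC. The untreated lines were far apart and the treated lines close together (−4.93 ± 0.29 log2, SE; adjusted p = 1.12e-07). SYNDIG1, a synaptic membrane gene, had UCSD-AML1 levels of 0, 1.83 and 0 untreated against 34.4, 40.5 and 35 with DAC, and ELF-153 levels of 666, 474 and 573 untreated against 89, 101 and 73.4 with DAC. It was near 0 in untreated UCSD-AML1, where the ratio with DAC was 59.9 (95% counting interval 16.2 to 500.3), and fell in ELF-153 by 2.69 (adjusted p = 7.61e-07 for the line difference). NKD2, an inhibitor of Wnt signalling (−5.43 ± 0.50 log2, SE; adjusted p = 1.16e-05), C3orf80 (−4.91 ± 0.39 log2, SE; adjusted p = 2.84e-06), the small membrane protein gene CTXN1 (−3.29 ± 0.50 log2, SE; adjusted p = 0.000581) and ACKR3, a scavenging receptor for the chemokine CXCL12 (−4.38 ± 0.53 log2, SE; adjusted p = 0.000114), followed the pattern, each from a higher untreated level in ELF-153. ARHGAP8 went from 105 ± 28.6 to 23 ± 10.2 in ELF-153 and from 0.612 ± 0.546 to 3.36 ± 2.2 in UCSD-AML1 (adjusted p = 0.00316). For genes that overlap on opposite strands the reads may not separate, since no source used here states the strand setting of the counting.

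**Figure D3:**
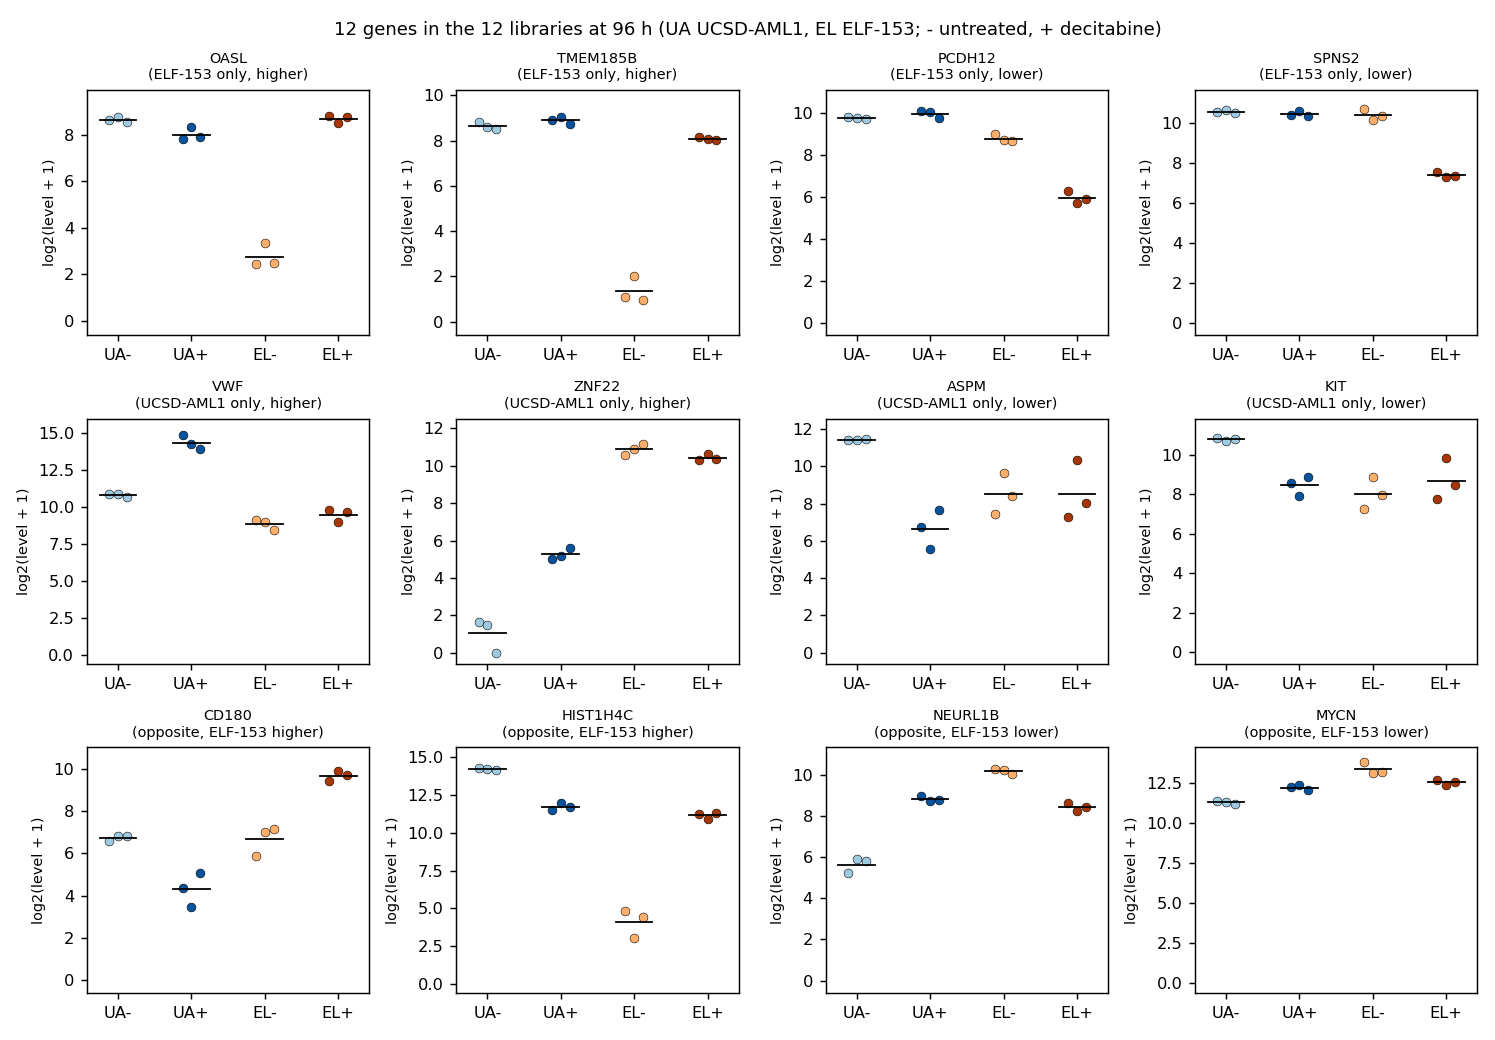
Level of 12 genes as log2(scaled reads + 1) in each of the 12 libraries at 96 h, 1 point per library, with a bar at the mean of each group (UA, UCSD-AML1; EL, ELF-153; minus, untreated; plus, DAC). SPNS2 drops in treated ELF-153 alone, VWF climbs in UCSD-AML1, and CD180 and NEURL1B move in opposite directions in the lines.

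Genes of the megakaryocyte and red cell lineages had line differences of both signs. Of 29 megakaryocyte and platelet genes 8 had a positive and 7 a negative line difference (median 0.13), although 20 were higher with DAC in ELF-153 and 25 in UCSD-AML1. The line difference was called in 51.7% of the list, against 25.8% of all genes. Over all genes 20.7% were higher with DAC in ELF-153 and 20% in UCSD-AML1. TUBB1, the platelet tubulin, had UCSD-AML1 levels of 2312, 2011 and 1767 untreated against 12094, 12732 and 11382 with DAC. ELF-153 levels were 14.6, 14.3 and 9.11 untreated against 1614, 1314 and 1388 with DAC. It rose in both lines from very different levels, and further on the log scale in ELF-153 (4.16 ± 0.27 log2, SE; adjusted p = 3.35e-07). The integrin subunit gene ITGB3 did the same (2.50 ± 0.24 log2, SE; adjusted p = 1.63e-05), and GP9, a subunit of the platelet receptor for von Willebrand factor, went from 1.06 ± 1.03 to 349 ± 84.7 in ELF-153 and from 2100.2 ± 209 to 8969.5 ± 1972 in UCSD-AML1 (adjusted p = 5.88e-06). With VWF and RUNX1 above, the negative calls included the coagulation factor gene F13A1 (adjusted p = 0.00292), NFE2 (−1.01, adjusted p = 0.0148) and the integrin gene ITGA2B (−0.88, adjusted p = 0.0231), named after their values were seen. Of 27 erythroid genes 9 were positive and 4 negative (48.1% called), and 11 and 1 without untreated ELF-153 replicate 1. RHAG, a red cell membrane channel, had UCSD-AML1 levels of 3283, 3092 and 2471 untreated against 4383, 5489.6 and 6267 with DAC. ELF-153 levels were 7.84, 7.17 and 0.911 untreated against 509.6, 637 and 497 with DAC. It rose in ELF-153 from near 0, and in UCSD-AML1 the change did not pass (adjusted p = 0.124), with a line difference of 5.86 ± 0.60 (log2, SE; adjusted p = 3.06e-05). GATA1, the transcription factor of red cells and megakaryocytes, had UCSD-AML1 levels of 419, 396 and 383 untreated against 1696, 1749 and 1459.8 with DAC. ELF-153 levels were 49.3, 23.6 and 24.6 untreated against 1064, 851 and 1025 with DAC. It rose in both lines and more in ELF-153 (2.92 ± 0.34 log2, SE; adjusted p = 7.44e-05). HBD, a globin gene with close paralogs, differed by 3.88 ± 0.37 (log2, SE; adjusted p = 1.65e-05), and LMO2, a partner of GATA1, went up in ELF-153 and down in UCSD-AML1 (2.43 ± 0.28 log2, SE; adjusted p = 7.03e-05). The erythroid factor KLF1, named after its value was seen, rose from 155 ± 18.8 to 1455 ± 431 in ELF-153 and from 1.31 ± 1.64 to 380.0 ± 88.8 in UCSD-AML1 (adjusted p = 0.000179).

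Of 23 granulocyte and monocyte genes 7 were positive and 0 negative (median 1.20; 30.4% called, near the 25.8% of all genes). CEBPE, a factor of late granulocyte maturation, had UCSD-AML1 levels of 37.7, 47.7 and 32.3 untreated against 17.7, 12.4 and 21.4 with DAC. ELF-153 levels were 50.4, 42 and 60.1 untreated against 370.3, 314 and 373 with DAC. The untreated lines overlapped and DAC moved them apart (3.94 ± 0.36 log2, SE; adjusted p = 1.04e-05). CYBB, the oxidase subunit of phagocytes, rose in both lines and more in ELF-153 (4.25 ± 0.50 log2, SE; adjusted p = 9.09e-05), and the integrin gene ITGAM (2.26 ± 0.30 log2, SE; adjusted p = 0.000221) and the calcium-binding gene S100A9 (2.02 ± 0.29 log2, SE; adjusted p = 0.000353) were higher in ELF-153 only. Of 22 stem and progenitor markers 5 were positive and 5 negative (45.5% called, against 25.8% of all genes). HLF, a stem cell transcription factor, fell in ELF-153 and rose in UCSD-AML1 from a low level (−4.44 ± 0.68 log2, SE; adjusted p = 0.00059), the oncogene MYCN moved likewise (−1.73 ± 0.26 log2, SE; adjusted p = 0.000496), and the leukaemia oncogene MN1 fell in ELF-153 only (−1.64 ± 0.30 log2, SE; adjusted p = 0.0019). THY1 was near 0 in untreated ELF-153 (0.373 ± 0.647) and at 22.2 ± 3.35 with DAC, against 209 ± 17.4 and 165 ± 48.8 in UCSD-AML1 (adjusted p = 3.58e-05). Of 21 cytokine receptor and signalling genes 5 were positive and 2 negative (33.3% called, against 25.8% of all genes), and IL1RL1, an interleukin receptor, differed by 2.69 ± 0.50 (log2, SE; adjusted p = 0.00217).

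Several genes chosen for their role in AML or in the action of DAC showed no called line difference. DNMT1, the maintenance methyltransferase that DAC depletes as a protein, had UCSD-AML1 levels of 255, 225 and 236 untreated against 127, 117 and 86.4 with DAC. ELF-153 levels were 472, 433 and 375 untreated against 162, 174 and 192 with DAC. Its transcript fell in both lines, and the line difference was −0.15 ± 0.26 (log2, SE; adjusted p = 0.708), with a 95% interval from −0.71 to 0.42. The line differences of DNMT3A (0.63), DNMT3B (−0.61), TET2 (0.27), DCK, the kinase that activates DAC (−0.90), CDKN1A (−0.65), MYC (−0.40), GATA2 (0.29), SPI1 (0.47) and CEBPA (−0.42) had adjusted p from 0.114 to 0.808. Of these, 4 were each called under 1 alternative: DCK after TMM scaling (−1.18, adjusted p = 0.0491), SPI1 with the mitochondrial rRNA covariate (0.65, adjusted p = 0.0406), DNMT3A with library weights (0.84, adjusted p = 0.0263) and CDKN1A with a pseudocount of 8 (−1.13, adjusted p = 0.0326). CD34 lay at the threshold (−0.82 ± 0.30 log2, SE; adjusted p = 0.0556) and was called in several alternatives. Among them were edgeR (adjusted p = 0.0252), DESeq2 (0.00935), TMM scaling (0.0138), library weights (0.0102), the mitochondrial rRNA covariate (0.028) and the replicate block (0.023). MECOM had UCSD-AML1 levels of 4086, 3993 and 3927 untreated against 1822, 2006 and 1723 with DAC, and ELF-153 levels of 0, 3.07 and 1.82 untreated against 2.84, 2.62 and 2.94 with DAC. It fell in UCSD-AML1 and was near 0 in ELF-153 throughout, so that the line difference (1.87 ± 0.52 log2, SE; adjusted p = 0.02) rests on a few reads there, and it was not called in edgeR or DESeq2 (adjusted p up to 0.136).

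In most of the remaining lists members were called in both directions, and the counts of several lists moved with scaling. Over all genes 17.1% were positive and 8.71% negative, and several of these lists lay near those shares. After TMM scaling the positive and negative counts were 3 and 8 for CDK inhibitors and p53 targets, 4 and 8 for stem and progenitor markers, 0 and 4 for NK ligands and checkpoints, 2 and 6 for cholesterol genes, 6 and 3 for DNA methylation genes, 4 and 1 for retroelement silencing, 7 and 3 for histones and 7 and 8 for megakaryocyte genes, and for imprinted genes they stayed at 6 and 4. Of 21 DNA methylation and decitabine handling genes 8 were positive and 1 negative. SAMHD1, a nucleotide hydrolase that breaks down the active triphosphate of cytidine analogues and also restricts viruses, had UCSD-AML1 levels of 1311, 1237 and 1042 untreated against 678, 741 and 787 with DAC. ELF-153 levels were 356, 279.7 and 305 untreated against 957, 1146 and 1035 with DAC. The untreated lines did not overlap, and with DAC ELF-153 lay above UCSD-AML1 (2.44 ± 0.23 log2, SE; adjusted p = 1.23e-05). TDG, a glycosylase of active demethylation, also went up in ELF-153 and down in UCSD-AML1 (2.38 ± 0.50 log2, SE; adjusted p = 0.00461). Of 23 retroelement silencing genes 6 were positive and 0 negative, with the cytidine deaminase genes APOBEC3G (1.35, adjusted p = 0.00912) and APOBEC3C (0.96, adjusted p = 0.0119) higher in ELF-153 only and ZC3HAV1 (0.85) not called after TMM scaling (adjusted p = 0.151). Of 30 CDK inhibitors and p53 targets 5 were positive and 5 negative: the p53 target BBC3, a death effector, rose in UCSD-AML1 only (−2.53 ± 0.51 log2, SE; adjusted p = 0.00363), PMAIP1, another, in ELF-153 only (1.35 ± 0.32 log2, SE; adjusted p = 0.00869), and the antiproliferative gene BTG2 in both and more in ELF-153 (1.94 ± 0.22 log2, SE; adjusted p = 7.21e-05). In the BCL2 family 5 of 15 were positive and 3 negative, among them MCL1 (1.33, adjusted p = 0.00453), BIK (1.51, adjusted p = 0.00248) and BOK, which was at least 15.7-fold higher with DAC in ELF-153 (adjusted p = 0.000142).

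Of 28 histone genes 10 were positive and 3 negative, where 17.1% and 8.71% of all genes were. The testis linker histone gene HIST1H1T rose in both lines and more in ELF-153 (5.42 ± 0.33 log2, SE; adjusted p = 1.87e-07), HIST1H1A was read almost only with DAC (399.9 ± 64.3 in ELF-153 and 52.4 ± 6.57 in UCSD-AML1, adjusted p = 0.000628), and HIST1H3J fell in ELF-153 only (−2.16 ± 0.27 log2, SE; adjusted p = 0.000139). Of 21 imprinted genes 6 were positive and 4 negative, with PHLDA2 (3.46, adjusted p = 0.00138) and ATP10A (1.64, adjusted p = 0.0105) lower in UCSD-AML1 only and INPP5F (1.74, adjusted p = 0.000967) higher in ELF-153 only. Of 26 cholesterol genes 2 were positive and 4 negative: IDI1 (1.71, adjusted p = 0.00037) and STARD4 (3.15, adjusted p = 0.013) against SQLE (−1.02, adjusted p = 0.0104), SREBF1 (−1.48, adjusted p = 0.011, and 0.0717 without retained-intron and processed transcripts) and, outside the naming rule, MVK (−2.77, adjusted p = 0.000464) and FDPS (−1.02, adjusted p = 0.0288). Of 24 ATF4 stress and amino acid genes 2 were positive and 6 negative. The amino acid transporter gene SLC7A5 fell in ELF-153 and rose in UCSD-AML1 (−1.91 ± 0.32 log2, SE; adjusted p = 0.00123), CHAC1, a glutathione-degrading stress gene, did the same (−3.02 ± 0.46 log2, SE; adjusted p = 0.000592), while ATF5 (2.04 ± 0.24 log2, SE; adjusted p = 9.05e-05) went the other way and MTHFD2 was higher in ELF-153 only (1.09 ± 0.25 log2, SE; adjusted p = 0.00669). Of 19 NK ligand and checkpoint genes 2 were positive and 4 negative: ULBP1, a ligand of the NK receptor NKG2D, rose in UCSD-AML1 only (−3.44 ± 0.82 log2, SE; adjusted p = 0.00909), as did TNFRSF14 (−1.22, adjusted p = 0.00635), and ICOSLG fell in ELF-153 only (−2.22 ± 0.47 log2, SE; adjusted p = 0.00462). Among markers of other cells, 2 of 13 lymphoid genes were positive and 1 negative (CD5 2.90 and PAX5 −1.05, adjusted p = 0.00439 and 0.0138), and 2 of 5 non-haematopoietic genes positive (PDGFRB 0.83, adjusted p = 0.0307, and 0.126 after TMM scaling).

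**Figure D4:**
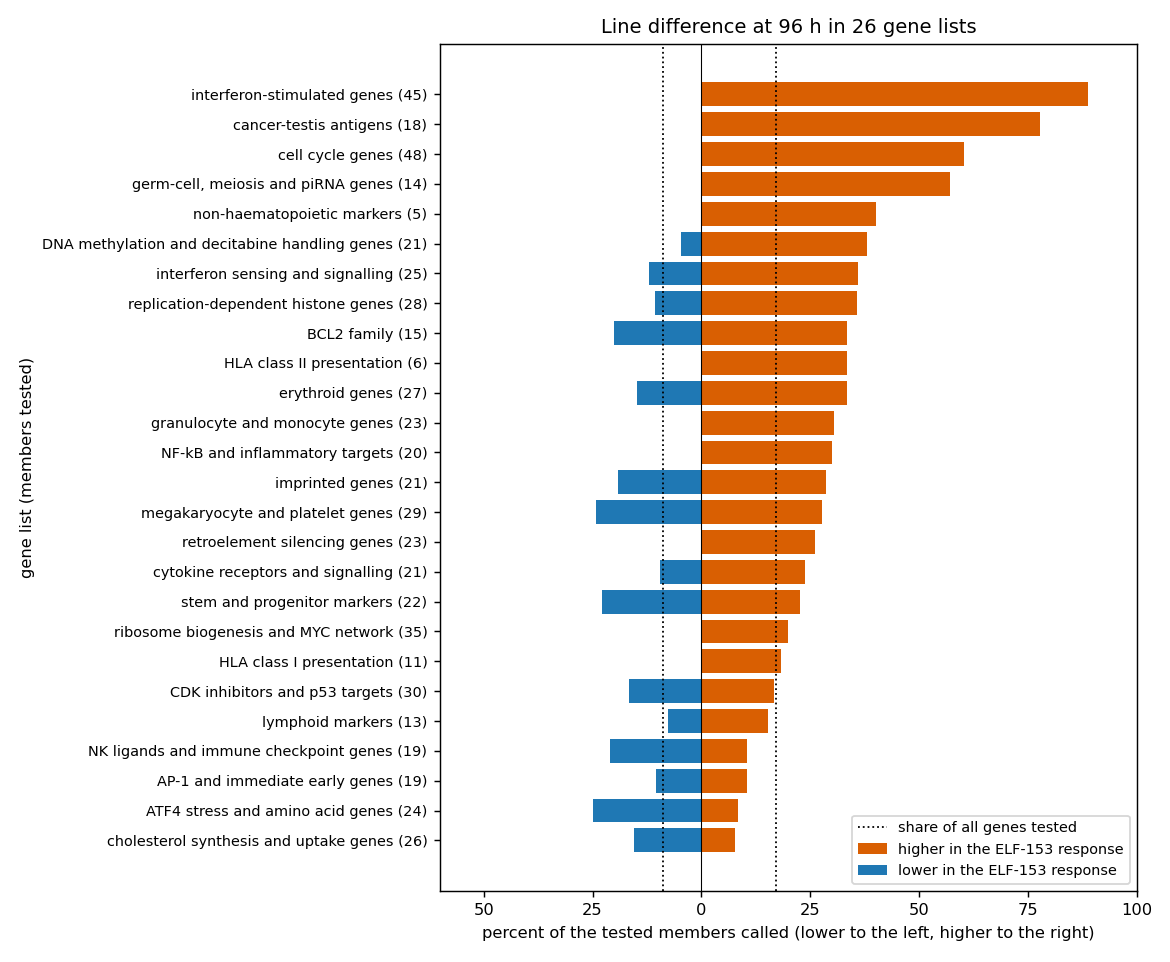
Percent of the tested members of 26 gene lists with a called line difference at 96 h, negative to the left and positive to the right, with the number tested in parentheses and dotted lines at the shares of all genes (8.71% and 17.1%). The interferon-stimulated genes (40 of 45) have the longest bar to the right, and the megakaryocyte bars are of similar length on both sides (8 and 7 of 29).

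Reads of repeat families, tabulated for the same 12 libraries at 96 h, gave another readout of the line difference. Of 1034 families 51 were called (4.93%), of which 15 were positive (1.45%) and 36 negative (3.48%), and 27 of the 51 were higher with DAC in UCSD-AML1 only. These counts depended on the processing. The repeat table's own deposited scaling gave 120 and 98 calls, edgeR with TMM 110 and 101, and a replicate block with the scaling unchanged 167 and 104. LTR14A, a retroviral long terminal repeat, had UCSD-AML1 levels of 19.9, 32.1 and 27.6 untreated against 749.5, 828 and 703 with DAC, and ELF-153 levels of 4.48, 8.19 and 9.11 untreated against 3.79, 10.5 and 12.7 with DAC. It rose in UCSD-AML1 alone, with a line difference of −4.62 ± 0.54 (log2, SE; limma adjusted p = 0.000334). HERVK14-int, the internal part of an endogenous retrovirus, had UCSD-AML1 levels of 154, 165 and 176 untreated against 2934, 2879.7 and 3036 with DAC, and ELF-153 levels of 58.2, 91.2 and 90.2 untreated against 88.1, 103 and 104 with DAC, again a rise in UCSD-AML1 alone (−3.83 ± 0.26 log2, SE; limma adjusted p = 1.72e-06). HERVS71-int fell in ELF-153 and rose in UCSD-AML1 (−3.32 ± 0.24 log2, SE; limma adjusted p = 1.72e-06), and LTR1 rose in UCSD-AML1 alone (−2.93 ± 0.35 log2, SE; limma adjusted p = 0.000334).

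The same subtraction was made in the 12 libraries harvested at 144 h, side by side and with no test between harvests. Of 17180 genes tested there, 3420 were positive (19.9%) and 1741 negative (10.1%). Of the genes higher in ELF-153 only at 96 h, 894 were tested at 144 h and 698 were again called positive, and of those lower in ELF-153 only 239 of 368 were again negative. Of the genes higher in UCSD-AML1 only 414 of 752 were again negative, and of those lower in UCSD-AML1 only 774 of 1189 again positive. The opposite classes gave 216 of 248 and 101 of 124 in the direction of 96 h. In these 6 classes 1 gene was called in the reverse direction, CHAC1, with 1.50 ± 0.29 (adjusted p = 0.00317) at 144 h. Its levels in untreated UCSD-AML1 were 14.7, 16.5 and 15.8 at 96 h and 189, 224 and 186 at 144 h. With DAC they were 69.8, 84.3 and 41.8 at 96 h and 37.8, 37.6 and 46.2 at 144 h. Of the interferon-stimulated genes 42 of 45 were positive and 0 negative at 144 h, with a median of 3.94. IFI44L differed by 11.87 ± 0.62 (adjusted p = 2.24e-07), GBP1 by 7.22 ± 0.46 (adjusted p = 5.92e-07) and RSAD2 by 6.20 ± 0.27 (adjusted p = 3.16e-08). Cell cycle genes were positive in 23 of 47 and negative in 0, and CCNA2 differed by 3.69 ± 0.40 (adjusted p = 6.68e-05). MECOM, on a few reads in ELF-153, differed by 4.95 ± 0.33 (adjusted p = 1.01e-06). ULBP1, negative at 96 h, was not called at 144 h (0.97 ± 0.42, adjusted p = 0.0952), and the same held for BBC3 (−0.69 ± 0.41, adjusted p = 0.216) and SLC7A5 (−0.92 ± 0.44, adjusted p = 0.128). Their levels in untreated UCSD-AML1 were also higher at 144 h. ULBP1 had 5.24, 6.42 and 0 at 96 h and 64.5, 75.7 and 34.6 at 144 h. BBC3 had 87, 58.7 and 56.8 against 144, 149 and 187, and SLC7A5 454, 455 and 457 against 973, 863 and 1765. The part of the untreated levels in these shifts was not tested. In the ATF4 list 9 of 24 were positive and 2 negative at 144 h.

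**Figure D5:**
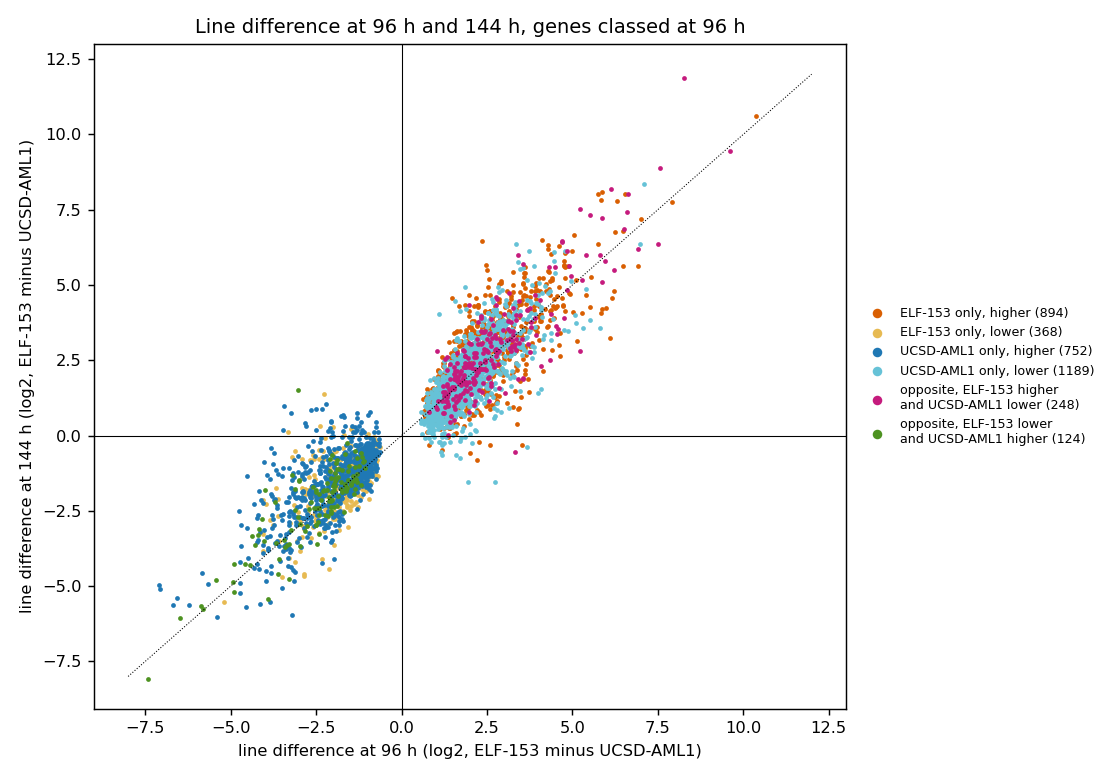
Log2 line difference at 96 h (horizontal axis) and 144 h (vertical axis) for genes of the one-line and opposite classes of 96 h that were tested at both harvests, coloured by class, with a dotted line where both are equal. Most points lie in the quadrants of equal sign, and CHAC1 (−3.02 at 96 h and 1.50 at 144 h) lies in the upper left.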

How the data were processed

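Total RNA, depleted of ribosomal RNA, of 12 libraries harvested at 96 h and 12 at 144 h was sequenced from stranded libraries, per the labels' protocols. The deposited values are signal: per the values, the authors divided reads per transcript, or per repeat family, by 1 size factor per library. All non-zero values were whole multiples of the library's step within 0.01, except in the repeat column of untreated ELF-153 replicate 2, whose step lay near 1 and was not marked as recovered. The submitters' processing notes list build hg19 with STAR, TopHat2, HTSeq, DESeq2 and FastQC, and give neither versions nor roles.

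Of 204940 transcripts 181859 (88.7%, with 97.8% of the value) were summed to 52994 genes by GENCODE release 29. Levels do not compare between genes, and near-identical paralogs are uncertain, since it is not stated how reads shared by several transcripts were counted. The test was limma 3.58.1 in R 4.3.3 on log2(gene sum + 1), with 1 mean per group fitted over all 12 libraries and moderated by eBayes (trend, robust), for genes reaching 10 in 3 or more libraries; changes of low genes are understated on this scale. The design named edgeR only for raw counts, so edgeR 4.0.16 on the recovered reads, DESeq2 1.42.0 and the settings of the closing section are alternatives. Repeat families had a mean of 10 or more and were scaled by the gene table. A group at 0 reads got a floor of 3 reads over the group, and 1 to 3 reads a ratio with its 95% interval; these cover counting error only. Replicates at 96 h differed by a chi-square of 3.80 to 196 per degree of freedom, above counting error, and depth 13.1 to 28.3 Mreads.

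Named genes were protein-coding, called and at a mean of 100 or more in a group: the 6 largest of each one-line class, the 8 strongest of each opposite class, 4 members per list by adjusted p, and a fixed set whatever their result; CDA was under the filter. Others were chosen after their values were seen. Some genes that the rule names, or that belong to the lists, are not reported here. The members and lists were chosen with earlier results of these data known. The main fit was also run on simulated counts with 1 dispersion for all genes and a DAC effect only in chosen genes. Such counts lack the scaling differences and uneven replicates described above, so that they say nothing of those. Tables and figures used Python 3.11.15, pandas 2.3.3, numpy 2.4.6, scipy 1.17.1 and matplotlib 3.10.9.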

Additional observations from a re-analysis of the deposited data

Results flagged for a closer look

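The lines differed in their change with DAC, by a test of that difference, at 3011 genes in the positive and 1533 in the negative direction. Among the genes named above by the rule that also passed in both lines with opposite signs, and that had more than 3 reads in every group, the positive line differences (log2) were 9.60 for HIST1H4C, 8.25 for IFI44L, 6.62 for ADAMTS3, 6.21 for IL7R, 5.87 for GBP1, 5.40 for CD180, 4.85 for KAZALD1, 3.94 for CEBPE and 3.75 for C21orf91. Smaller positive values were 2.44 for SAMHD1, 2.43 for LMO2, 2.38 for TDG, 2.35 for EIF2AK2, 2.04 for ATF5 and 1.34 for CTSS. The negative ones were −5.43 for NKD2, −4.93 for NEURL1B, −4.91 for C3orf80, −4.44 for HLF, −4.38 for ACKR3, −3.29 for CTXN1, −3.02 for CHAC1, −1.91 for SLC7A5 and −1.73 for MYCN. The same held with a group at 3 reads or fewer, so that the log2 value is no measure of size, for EGR3 (adjusted p = 7.13e-06) and CLECL1 (adjusted p = 1.69e-08) in the positive direction. In the negative direction it held for SYNDIG1 (adjusted p = 7.61e-07) and ARHGAP8 (adjusted p = 0.00316), all 4 by limma. Outside the rule, MX1 and OAS2 were also opposite, with 3.43 and 2.99. The opposite signs depend on the fit: with the mitochondrial rRNA covariate 46 of all 253 and 28 of all 127 opposite genes stayed opposite.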

How the results depend on the processing

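With groups of 3 technical libraries, p-values cover the spread between libraries and say nothing of cultures, and positive against negative counts move with scaling. Counts that moved by over 1.5 times follow. DESeq2 gave 562 genes lower in ELF-153 only and 207 in the opposite class lower in ELF-153, and edgeR with TMM 809 lower in UCSD-AML1 only. Library weights gave 2516 negative calls, 724 lower in ELF-153 only, and 680 and 311 opposite (ELF-153 higher, ELF-153 lower). TMM in limma gave 2398 negative, 695 lower in ELF-153 only, 805 lower in UCSD-AML1 only, and 146 and 236 opposite. The mitochondrial rRNA covariate gave 506 and 203 (ELF-153 only, higher and lower), 1875 (UCSD-AML1 only, lower), and 79 and 34 opposite. Without a filter 161 genes were opposite with ELF-153 higher. The rule that the other line's interval lie within 2-fold kept 375, 221, 415 and 556 of the one-line classes. At 144 h edgeR with TMM gave 2025 positive calls. Repeat families were 110 positive and 101 negative in edgeR with TMM, and 120 and 98 with their scaling as deposited. The cause was not tested. In UCSD-AML1 at 96 h libraries of the same replicate number did not track each other (correlations of deviations −0.143, 0.0613 and −0.101). In ELF-153 numbers 1 and 2 did (0.449 and 0.47, against −0.452 and −0.474 for the crossed pairs), and number 3 did not (−0.0895). The main fit did not pair libraries. With a replicate block 3606 genes were positive and 1746 negative, 569 were opposite with ELF-153 higher, and 167 and 104 repeat families were called. Leaving out 1 library at a time gave 1997 to 3445 positive and 1003 to 1565 negative genes, 428 to 1199 and 231 to 407 in ELF-153 only, 471 to 815 and 697 to 1306 in UCSD-AML1 only, 124 to 391 and 86 to 144 opposite, 1738 to 4495 and 1004 to 2439 at 144 h, and 8 to 28 and 14 to 51 repeat families. Over all alternatives 3144 values of named genes kept their direction and side of the threshold, 115 were no longer called, 15 became called, and 0 reversed; of list counts 1036 stayed within 1.5 times and 212 did not.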

Other observations

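Among the repeat families with a positive line difference, HERV-Fc1_LTR1 had UCSD-AML1 levels of 0, 0 and 0.788 untreated against 3.93, 0 and 1.94 with DAC, and ELF-153 levels of 0, 0 and 0 untreated against 108, 106 and 109 with DAC. It was at 0 in untreated ELF-153 and read in every treated ELF-153 library (limma adjusted p = 0.00109). The family passed the filter on its mean only through treated ELF-153, so that this p-value is a description only. Its internal part HERV-Fc1-int had UCSD-AML1 levels of 0, 1.83 and 0 untreated against 6.89, 14.6 and 10.7 with DAC, and ELF-153 levels of 0, 3.07 and 0 untreated against 323, 395 and 372 with DAC. It was higher with DAC in both lines and more so in ELF-153 (limma adjusted p = 0.00521 for the line difference). HERV-Fc1-int too passed the filter only through treated ELF-153, and its p-value is likewise a description only. HERVE_a-int had UCSD-AML1 levels of 1126, 1119 and 1082 untreated against 503, 463 and 530.3 with DAC, and ELF-153 levels of 138, 177 and 151 untreated against 563, 767 and 663 with DAC. It rose in ELF-153 and fell in UCSD-AML1 (3.24 ± 0.23 log2, SE; limma adjusted p = 1.72e-06), and MLT1-int differed by 2.29 ± 0.49 (log2, SE; limma adjusted p = 0.0188).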
